A study of Mus musculus with 9 samples.

Results

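Lipogenic transcription factors were examined in the mammary gland of mice that carry human NAG-1 (hNAG-1, also named GDF15) and of wild type (WT) mice. The 9 genes were Pparg, Ppara, Ppard, Srebf1, Cebpa, Cebpb, Rxra, Nr1h2 and Nr1h3. They were found by an exact match of the array's gene name among features that are not controls, which gave 12 of the 41174 probes of the array, or 30 features on each array. RNA came from mammary gland number 4 on lactation day 2 (L2) of 4 WT dams and 5 hNAG-1 dams, whose strain background is labeled C57BL/7, with 1 array for each mouse. That label may be a misspelling, since the paper's text speaks of C57BL/6 females. The transgene was made to be expressed ubiquitously, so an effect of the protein within the gland and an effect from elsewhere in the body cannot be told apart. The study used mainly 1 of 2 transgenic lines and combined both in some experiments, and the labels do not give the line of a mouse. The methods describe gland collection after the fourth litter for the dams of the breeding study, and do not state the litter for the arrays separately.

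These factors form the core of the regulation of fat synthesis. PPARs and LXRs are nuclear receptors that bind DNA as a pair with an RXR, and fatty acids or their derivatives (PPARs) and oxidized cholesterol (LXRs) activate them. PPARG drives the formation of adipocytes together with CEBPA and CEBPB, PPARA and PPARD favor the burning of fatty acids, and LXRs raise the transcription of Srebf1. SREBP1, the protein of Srebf1, is held in the membrane of the endoplasmic reticulum until it is cut, and the released part turns on fatty acid synthesis, which the mammary epithelium starts at the onset of lactation. An mRNA level does not measure how much of it was cut or whether a receptor had bound a ligand.

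Values are intensities with background subtracted, scaled so that the 75th percentile is the same on every array. Differences are log2 fold changes, hNAG-1 minus WT, from limma fitted over all probes, and adjusted p-values are adjusted over all of them. Every one of the 12 probes was well above background on 9 of 9 arrays and none was saturated on any. The arrays came from 3 slides. WT 1 was alone on slide 1, and the first 4 hNAG-1 mice shared slide 2. Mouse hNAG-1 5 shared slide 3 with the 3 remaining WT mice, so only slide 3 sets the genotypes side by side. A difference fitted with slide as a block is therefore that of mouse hNAG-1 5 from these 3 WT mice. The 75th percentile before scaling ranged from 508.6 to 1133, and between 59.8% and 76.1% of features were well above background. WT 2 stood apart from the other mice in its lymphocyte markers. The summed intensity of 8 lymphocyte markers was 43925 in WT 2 and between 1990 and 8709 in the other 8 mice.

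No lipogenic factor differed between the genotypes after adjustment over all probes, with a lowest adjusted p of 0.654 among the 12 probes in limma. At an unadjusted p under 0.05, 2 of 12 probes passed, 1 for Pparg and 1 for Cebpb, both with the higher level in hNAG-1. Of all probes on the array, 5.62% passed that threshold, 1.2% higher and 4.42% lower, and 0.00243% passed after adjustment. A log2 fold change above 0 was seen for 8 of 12 probes against 48.3% of all probes, and the median of the 12 was 0.26 against -0.01 for all probes. For the 23089 probes well above background on all arrays, 52.5% had a fold change above 0. When slide was added as a fixed block, 0 of the 12 probes passed the unadjusted threshold against 7.58% of all probes. The median fold change of all probes was then 0.186 on the log2 scale, against -0.0144 without the block, so block values are read against that level. The median of the 12 probes under the block was 0.12.

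The scaling of the arrays moved these counts along with those of all probes. With each array scaled to its median, 5 of 12 member probes had an unadjusted p under 0.05 against 8.76% of all probes, and 11 of 12 had a fold change above 0 against 68.8%. Without scaling the counts were 0 of 12 against 5.02%, and 6 of 12 against 29.4%. After quantile normalization 10 of 12 members had a fold change above 0 against 55.8% of all probes, and with normexp background correction 10 of 12 against 63.2%. The median log2 fold change of all probes was 0.196 with median scaling and -0.164 without scaling, against -0.0144 with the 75th percentile. When 1 mouse was left out, 1 of 12 members had an unadjusted p under 0.05 without WT 1 (4.98% of all probes), without WT 2 (4.31%) and without hNAG-1 2 (2.82%), and 4 of 12 without hNAG-1 4 (3.82%). With the replicate numbers of the mice as a block the count was 2 of 12 against 13.1%.

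**Figure D1:**
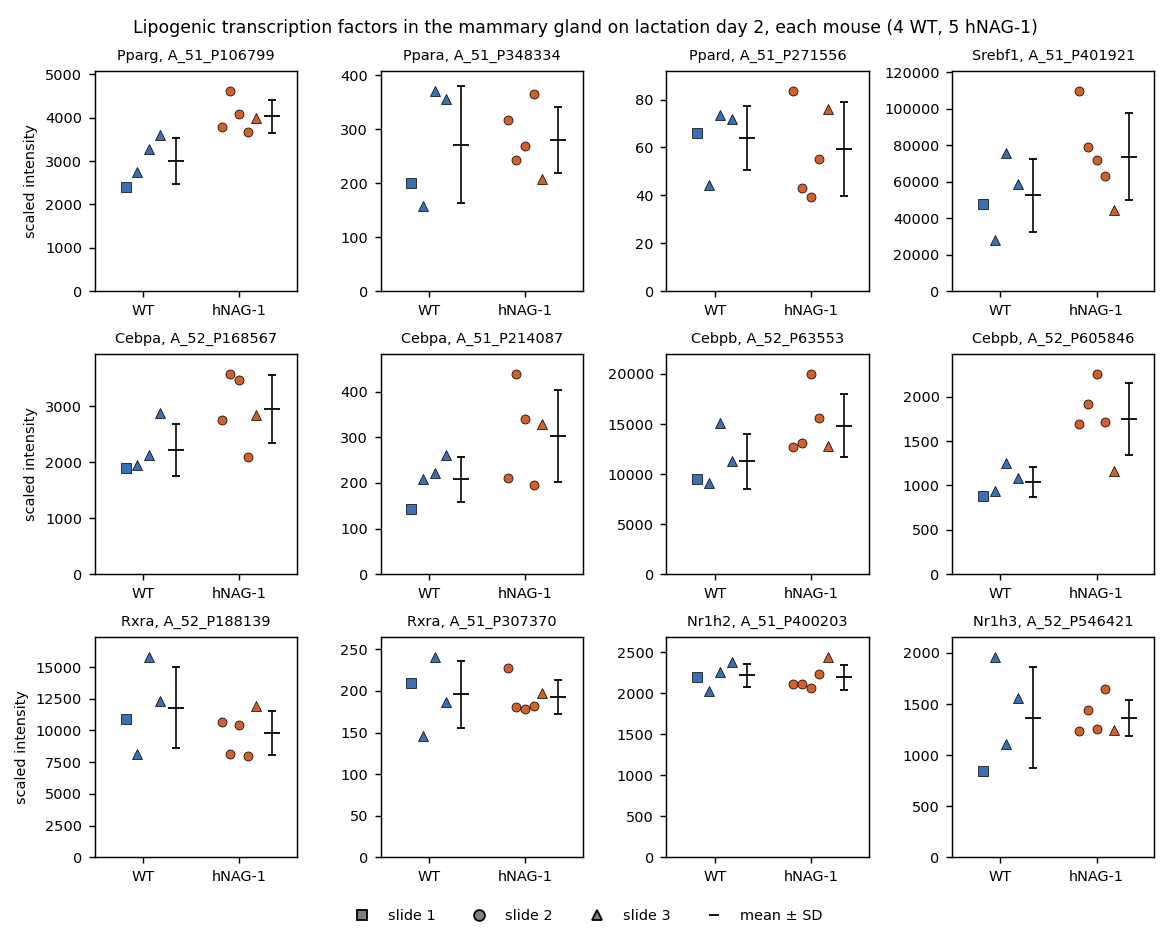
Scaled intensity (linear axis from 0) of each of the 12 probes in each mouse, WT in blue and hNAG-1 in orange, with marker shape for the slide and the mean ± SD beside each genotype (n = 4 and 5). The genotypes did not overlap for Pparg, and they overlapped for the other 11 probes.

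Pparg, the adipogenic PPAR, was the only member whose genotypes did not overlap. The scaled intensity was 2414, 2743, 3285 and 3592 in WT 1 to 4, and 3777, 4623, 4088, 3666 and 3987 in hNAG-1 1 to 5. The highest WT mouse lay just under the lowest hNAG-1 mouse, and the WT mice were spread more widely. The WT mean was 3009 ± 529 (SD, n = 4) and the hNAG-1 mean was 4028 ± 372 (SD, n = 5). This gave a log2 fold change of 0.43 with a 95% confidence interval of 0.07 to 0.79. The unadjusted limma p was 0.0232 and the adjusted p was 0.654. The exact two-sided permutation p was 0.00794, the smallest that the 126 splits of the arrays into 4 and 5 can give, and genotypes that do not overlap with hNAG-1 higher were seen for 0.695% of all probes. With slide as a block the value was 0.32, with a confidence interval of -0.31 to 0.95. The unadjusted limma p was above 0.05 when WT 1 (log2 fold change 0.33), WT 2 (0.39) or hNAG-1 2 (0.38) was left out.

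Repeated features give the noise of single spots, which leaves out the error of RNA preparation, labeling and hybridization. The array carries this Pparg probe in 10 features, and their coefficient of variation within an array was 3.52% to 6.38%. Between mice it was 17.6% in WT and 9.23% in hNAG-1. The Ppara probe is also printed in 10 features, with a coefficient of variation of 5.12% to 8.54% within an array, against 39.8% between WT mice and 22% between hNAG-1 mice.

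Cebpa, the C/EBP that acts with Pparg late in adipocyte formation, was measured by 2 probes. For probe A_52_P168567 the scaled intensity was 1896, 1960, 2129 and 2889 in WT 1 to 4, and 2752, 3583, 3468, 2088 and 2853 in hNAG-1 1 to 5. WT 4 lay among the hNAG-1 mice and hNAG-1 4 lay among the WT mice, so the groups overlapped. The log2 fold change was 0.41 (95% confidence interval -0.06 to 0.87, exact permutation p = 0.0873). For probe A_51_P214087 it was 0.51 (95% confidence interval -0.13 to 1.14, exact permutation p = 0.135). In that probe too hNAG-1 4 was the lowest hNAG-1 mouse, at 196, and WT 4 was the highest WT mouse, at 261. With slide as a block the values were 0.32 and 0.52.

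Cebpb, a C/EBP of the mammary epithelium that is needed for the growth of alveoli and that acts early in adipocyte formation, gave the lowest unadjusted p of the members. The 2 probes of Cebpb read different parts of the same mRNA, and the sequences below show which coding part was read for each C/EBP gene. Both C/EBP genes have no introns, so all their probes are exonic. Probe A_52_P605846 of Cebpb lies on chromosome 2 at chr2:167482463-167482522 on the plus strand of mouse build mm7, and probe A_51_P214087 of Cebpa at chr7:32010056-32010115 on the plus strand. Both lie in the part that codes for the leucine zipper, by which C/EBP proteins pair, and both hold 60% G and C. They are in lower case because no base in them is singled out.
Cebpb A_52_P605846: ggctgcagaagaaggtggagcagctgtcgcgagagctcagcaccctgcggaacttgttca
Cebpa A_51_P214087: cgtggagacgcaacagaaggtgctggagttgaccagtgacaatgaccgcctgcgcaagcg
The other Cebpb probe, A_52_P63553, lies at chr2:167483001-167483059, holds 33.3% G and C and contains the letters AATAAA of a polyadenylation signal, as found near the end of an mRNA.

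For the coding Cebpb probe A_52_P605846 the scaled intensity was 884, 935, 1255 and 1089 in WT 1 to 4, and 1697, 1923, 2259, 1714 and 1159 in hNAG-1 1 to 5. Mice hNAG-1 1 to 4, all on slide 2, lay above every WT mouse, and hNAG-1 5, on slide 3 with WT 2 to 4, lay between WT 4 and WT 3. The log2 fold change was 0.73 (95% confidence interval 0.26 to 1.21), with an unadjusted limma p of 0.00684, an adjusted p of 0.654 and an exact permutation p of 0.0238. With slide as a block it was 0.10 (95% confidence interval -0.58 to 0.77), under the shift of all probes. Without hNAG-1 5 it was 0.87, with an adjusted limma p of 0.0676, and 14.4% of all probes then had an unadjusted p under 0.05.

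The Cebpb probe near the end of the mRNA, A_52_P63553, gave a smaller difference. Its scaled intensity was 9552, 9087, 15095 and 11344 in WT 1 to 4, and 12677, 13153, 20019, 15602 and 12801 in hNAG-1 1 to 5. Mice hNAG-1 3 and 4 lay above every WT mouse, and the other hNAG-1 mice lay under WT 3. Its log2 fold change was 0.40 (95% confidence interval -0.07 to 0.88, exact permutation p = 0.103), and 0.14 with slide as a block. For the mean of both probes it was 0.57. The difference between the fold changes of the 2 probes was not tested.

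**Figure D2:**
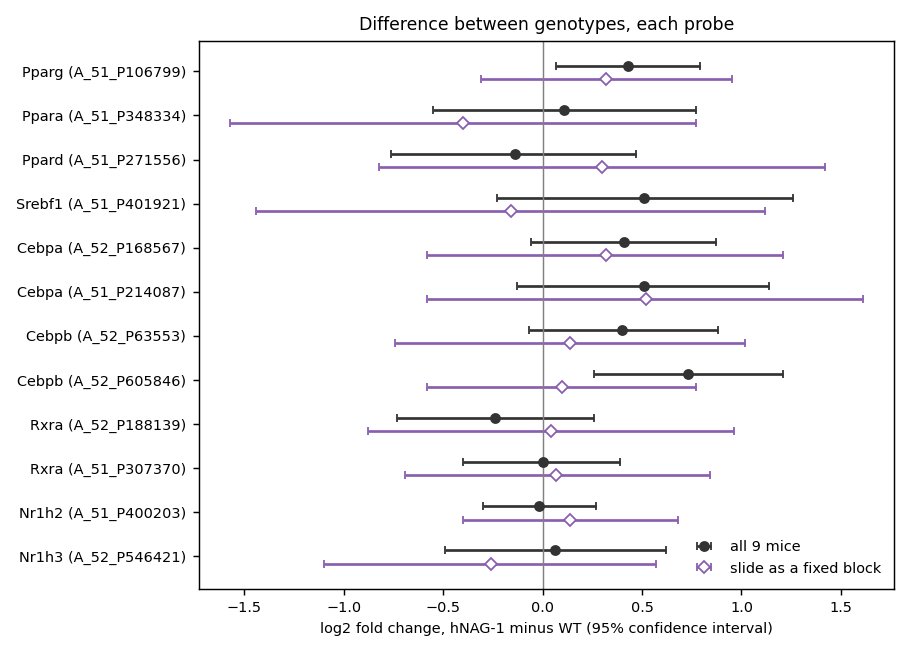
Log2 fold change (hNAG-1 minus WT, linear axis) with its 95% confidence interval for each of the 12 probes, from all 9 mice (filled) and with slide as a fixed block (open). The interval lies above 0 for Pparg and for Cebpb A_52_P605846 with all mice, and every interval covers 0 under the block, whose all-probe median is 0.186.

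Srebf1, the gene of SREBP1, had one of the larger fold changes and the widest confidence interval. The scaled intensity was 47895, 28067, 75557 and 58672 in WT 1 to 4, and 109776, 78825, 72002, 62920 and 44590 in hNAG-1 1 to 5. WT 2 was the lowest mouse and hNAG-1 1 the highest, and on slide 3 hNAG-1 5 lay under both WT 3 and WT 4. The WT mean was 52548 ± 19900 (SD, n = 4) and the hNAG-1 mean was 73623 ± 23900 (SD, n = 5). The log2 fold change was 0.51 (95% confidence interval -0.23 to 1.26, exact permutation p = 0.214). It was 0.24 without WT 2 and 0.68 without hNAG-1 5, and -0.16 with slide as a block. The probe does not tell the Srebf1 isoforms apart in these data, since only 1 probe carries that gene name.

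Ppara, the PPAR of fatty acid oxidation, did not separate the genotypes. The scaled intensity was 201, 158, 371 and 356 in WT 1 to 4, and 316, 243, 268, 365 and 208 in hNAG-1 1 to 5. Every hNAG-1 mouse lay within the range of the WT mice. The log2 fold change was 0.11 (95% confidence interval -0.55 to 0.77, exact permutation p = 0.730), and it was -0.12 without WT 2 and -0.40 with slide as a block.

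Ppard, the PPAR found in most tissues, was the dimmest of these probes. The scaled intensity was 66.1, 44.3, 73.4 and 71.9 in WT 1 to 4, and 83.7, 43.1, 39.2, 55.1 and 75.9 in hNAG-1 1 to 5. Both ends of the range were hNAG-1 mice, with 2 above and 2 below every WT mouse. This was a log2 fold change of -0.14 (95% confidence interval -0.76 to 0.47, exact permutation p = 0.635). Ppard was at 0.14 after quantile normalization, at 0.10 with normexp and at -0.29 without scaling. It was at 0.30 with slide as a block, where the median of all probes was 0.186, and at 0.07 with median scaling, where that median was 0.196. When a mouse was left out it was between -0.31 (without WT 2) and -0.01 (without hNAG-1 3).

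The shared partner Rxra, with which PPARs and LXRs bind DNA, was measured by 2 probes. For A_52_P188139 the scaled intensity was 10881, 8127, 15805 and 12283 in WT 1 to 4, and 10695, 8152, 10401, 7955 and 11958 in hNAG-1 1 to 5. Only hNAG-1 4 lay outside the WT range, just below it. The log2 fold change was -0.24 (95% confidence interval -0.73 to 0.26, exact permutation p = 0.254). It was between -0.40 (without WT 2) and -0.08 (without WT 3) when a mouse was left out, -0.03 with median scaling and 0.04 with slide as a block. Probe A_51_P307370 had a WT mean of 196 ± 40.2 (SD, n = 4) and an hNAG-1 mean of 193 ± 20.4 (SD, n = 5), with a confidence interval of the log2 fold change of -0.40 to 0.39, and the log2 fold change was between -0.14 and 0.10 when a mouse was left out.

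The LXR genes Nr1h2 (LXR beta) and Nr1h3 (LXR alpha) had close means in the 2 genotypes. Nr1h2 was the steadiest member over the 9 mice, between 2031 and 2380 in WT and between 2059 and 2442 in hNAG-1. The Nr1h2 log2 fold change was -0.02 with a confidence interval of -0.30 to 0.27, and between -0.06 and 0.02 when a mouse was left out. Nr1h3 ranged from 840 in WT 1 to 1962 in WT 2, and all 5 hNAG-1 mice lay inside that range, between 1235 and 1646. The Nr1h3 log2 fold change was 0.06 with a confidence interval of -0.49 to 0.62, and it was between -0.15 (without WT 1) and 0.26 (without WT 2) when a mouse was left out.

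Among the members, Pparg and Cebpa moved together from mouse to mouse. Over the 9 mice, Pearson's r of their log2 values was 0.87 (exact permutation p = 0.00124, adjusted p = 0.0445 over 36 pairs of members) and Spearman's rho was 0.87 (exact permutation p = 0.00451). It was 0.83 without WT 1 and WT 2, the mice farthest from the median of Pparg, 0.79 after the mean of each genotype was removed, and 0.84 after the mean of each slide was removed. The next pair, Ppara and Srebf1, had r = 0.73 (exact permutation p = 0.0238, adjusted p = 0.426), which was 0.49 without WT 2 and 0.74 after the mean of each slide was removed. No other pair had an unadjusted p under 0.05. Brightest probes were used for these pairs.

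Cell type markers were set beside these values. Of all probes, 48.3% were higher in hNAG-1 and 5.62% had an unadjusted p under 0.05. In whole gland RNA, fewer cells of a type and less RNA per cell cannot be told apart. Of 11 adipocyte markers, 10 were higher in hNAG-1, with a median log2 fold change of 0.27 and 0 at an unadjusted p under 0.05. Without Adrb3, which was well above background on 3 of 9 arrays, 9 of 10 were higher (median 0.36). The mean log2 value of the markers, taken around the mean of the 9 mice, was -1.0, -0.28, 0.06 and 0.40 in WT 1 to 4, which is also the order of Pparg and Cebpa in these mice. It was 0.13, 0.39, 0.20, -0.17 and 0.28 in hNAG-1 1 to 5, where hNAG-1 2 was the highest and hNAG-1 4 the lowest, as for Pparg and Cebpa. The summed intensity of the list ranged from 420160 to 797779 in WT and from 590190 to 726380 in hNAG-1. WT 4 had the highest adipocyte marker value of all mice and a Pparg value of 3592, under the 3666 of hNAG-1 4, which had the lowest adipocyte marker value among hNAG-1 mice. Of the 11 markers, 6 are also on the list of PPARG targets. The median fold change of adipocyte markers was 0.09 without WT 1, 0.32 without WT 2 and 0.25 without hNAG-1 2. In each of these cases 1 of the 12 member probes passed the unadjusted threshold. The part of adipocyte content in the Pparg and Cebpa values was not tested.

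Markers of other cell types were compared in the same way, beside the same shares of all probes (48.3% higher, 5.62% at an unadjusted p under 0.05). All 10 markers of the secretory epithelium were higher in hNAG-1, with a median of 0.10 and 1 at an unadjusted p under 0.05, and without WT 2 the median was -0.04 and 2 of 10 were higher. All 7 myoepithelial markers were higher, 1 of them at an unadjusted p under 0.05, with a median of 0.34 that was 0.12 without WT 2. All 8 lymphocyte markers were lower, 1 of them at that threshold, with a median of -1.25 that was -0.45 without WT 2. With slide as a block 68.5% of all probes were higher. The counts were then 9 of 11 adipocyte, 7 of 10 secretory, 7 of 7 myoepithelial and 0 of 8 lymphocyte markers. In WT 2 the secretory, myoepithelial and SREBP1 target values were the lowest of the 9 mice and the lymphocyte value was the highest. Srebf1, Ppara, Nr1h2, Cebpb (A_52_P63553) and Rxra (A_51_P307370) were at their lowest in this mouse, and Nr1h3 was at its highest. The part of these cell types in the values of these members was not tested. Macrophage markers (2 of 7 higher, median -0.10) and endothelial markers (4 of 5 higher, median 0.16) had no member at an unadjusted p under 0.05. The macrophage median was -0.44 with 0 of 7 higher under the slide block and 0.11 with 5 of 7 higher without WT 2. The endothelial median was -0.27 with 0 of 5 higher under the slide block and 0.26 without WT 2.

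**Figure D3:**
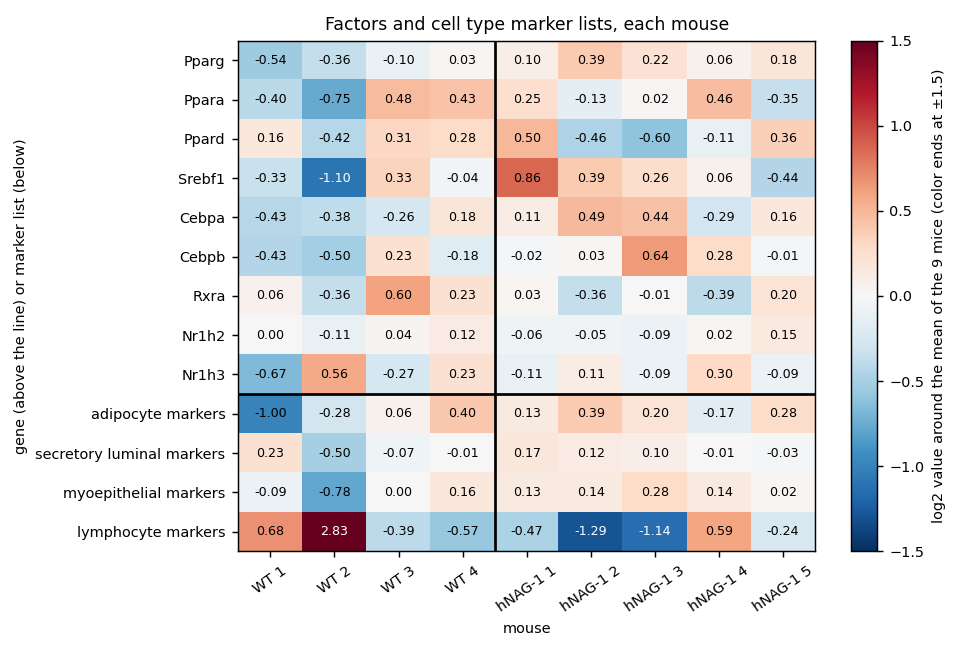
Log2 values around the mean of the 9 mice for the brightest probe of each factor (above the line) and mean log2 values of 4 cell type marker lists (below), with WT mice left of the vertical line; red is above and blue below the mean. WT 1 is lowest for adipocyte markers (-1.0), Pparg, Cebpa and Nr1h3. WT 2 is lowest for Srebf1, Ppara, Cebpb and Nr1h2, and highest for Nr1h3 and lymphocyte markers (2.83, beyond the end of the color scale).

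The genes that the factors act with and on were described by lists, using the brightest probe of each gene. None of their members passed an adjusted p of 0.05. For the counts that follow, 48.3% of all probes were higher in hNAG-1. An unadjusted p under 0.05 was seen for 5.62% of all probes, 1.2% higher and 4.42% lower. Of the 8 genes named here with an unadjusted p under 0.05, 0 passed it with slide as a block, and 2 (Mid1ip1 and Pdk4) passed it without WT 2. Of 15 SREBP1 targets, the enzymes of fatty acid synthesis, elongation and desaturation and their regulators, 15 were higher in hNAG-1, with a median log2 fold change of 0.56, and 2 had an unadjusted p under 0.05. Mid1ip1, a regulator of acetyl-CoA carboxylase, had a WT mean of 1955 ± 383 (SD, n = 4) and an hNAG-1 mean of 2833 ± 361 (SD, n = 5), without overlap (log2 fold change 0.55, exact permutation p = 0.0159). With slide as a block Mid1ip1 was at 0.18, about the median of all probes. Elovl6, which lengthens palmitate, had a log2 fold change of 0.84 (exact permutation p = 0.0556), and 1.02 with slide as a block. The mean of the SREBP1 targets was -1.11 in WT 2 against -0.18 to 0.15 in the other WT mice and -0.16 to 0.82 in hNAG-1, on the log2 scale around the mean of the 9 mice. Without WT 2 the median fold change was 0.27 with 12 of 15 higher. With slide as a block it was 0.13 with 9 of 15 higher, against 68.5% of all probes.

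The targets of the other factors gave no common direction. Of 15 PPARG targets, 11 were higher, with a median of 0.21. When a mouse was left out the median was between 0.03 (without WT 2) and 0.39 (without WT 4). The 1 gene with an unadjusted p under 0.05 was lower. That gene was Pck1, which makes phosphoenolpyruvate for glycerol and glucose synthesis, with a WT mean of 17023 ± 6510 (SD, n = 4) and an hNAG-1 mean of 8786 ± 4290 (SD, n = 5) (log2 fold change -1.01, exact permutation p = 0.0714). Pck1 was at -0.33 with slide as a block and at -0.79 without WT 2. Of 15 PPARA and PPARD targets, 5 were higher (median -0.10), and 8 were higher without WT 2 (median 0.01). With slide as a block 9 of 15 were higher (median 0.04), against 68.5% of all probes (median 0.186). Of the 12 that were well above background on every array, 4 were higher (median -0.10). Pdk4, which blocks the entry of pyruvate into the citric acid cycle when fat is burned, had the lowest p of that list, with a log2 fold change of -1.10 (exact permutation p = 0.0397), and it was 0.25 with slide as a block. Pdk4 without hNAG-1 5 was at -1.41.

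Of 9 LXR targets, 3 were higher, with a median of -0.21, which was -0.06 without WT 2 and -0.38 without WT 1. Abcg5, Abcg8 and Cyp7a1 were not well above background on every array, and 2 of the other 6 were higher (median -0.20). Lpcat3, which remodels phospholipids, was among the higher genes, with a WT mean of 1990 ± 199 (SD, n = 4) and an hNAG-1 mean of 2766 ± 628 (SD, n = 5) (log2 fold change 0.45, exact permutation p = 0.0397). Lpcat3 was at 0.30 with slide as a block. Of 6 C/EBP targets, 5 were higher (median 0.23, and 0.01 without WT 2). With slide as a block 2 of 6 were higher, against 68.5% of all probes. None had an unadjusted p under 0.05. Orm1, an acute phase protein and the C/EBP target with the lowest p, had a log2 fold change of 0.79 (exact permutation p = 0.0952), and 0.47 without WT 2.

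Partners and cofactors were balanced between higher and lower. Of 6 paralogs and partners that were measured, 3 were higher, and Srebf2, which drives cholesterol synthesis, had the lowest p of them with a log2 fold change of 0.25 (exact permutation p = 0.302), 0.08 without WT 2 and -0.31 with slide as a block. Of 5 genes of SREBP processing, 4 were higher (2 without WT 2), Mbtps2 was not well above background on every array, and Insig1, which retains SREBPs in the endoplasmic reticulum and is itself an SREBP target, had a log2 fold change of 0.77 (exact permutation p = 0.127), 0.45 without WT 2 and -0.10 with slide as a block. Of 13 coactivators and corepressors, 6 were higher. Lpin1, a phosphatidate phosphatase that also acts with PPARs, had a log2 fold change of 0.64 (exact permutation p = 0.0714), 0.43 without WT 2 and 0.01 with slide as a block. The acetyltransferase Ep300 had one of -0.42 (exact permutation p = 0.0476, and -0.06 with slide as a block).

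Of 10 other regulators of milk fat synthesis, 9 were higher, with a median of 0.13, and 6 were higher without WT 2. With slide as a block 6 of 10 were higher, against 68.5% of all probes. Mlxipl, which codes for the glucose sensor ChREBP, had a WT mean of 1693 ± 937 (SD, n = 4) and an hNAG-1 mean of 2815 ± 804 (SD, n = 5) (log2 fold change 0.84, exact permutation p = 0.0794). It was 0.59 without WT 2 and 0.54 with slide as a block.

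**Figure D4:**
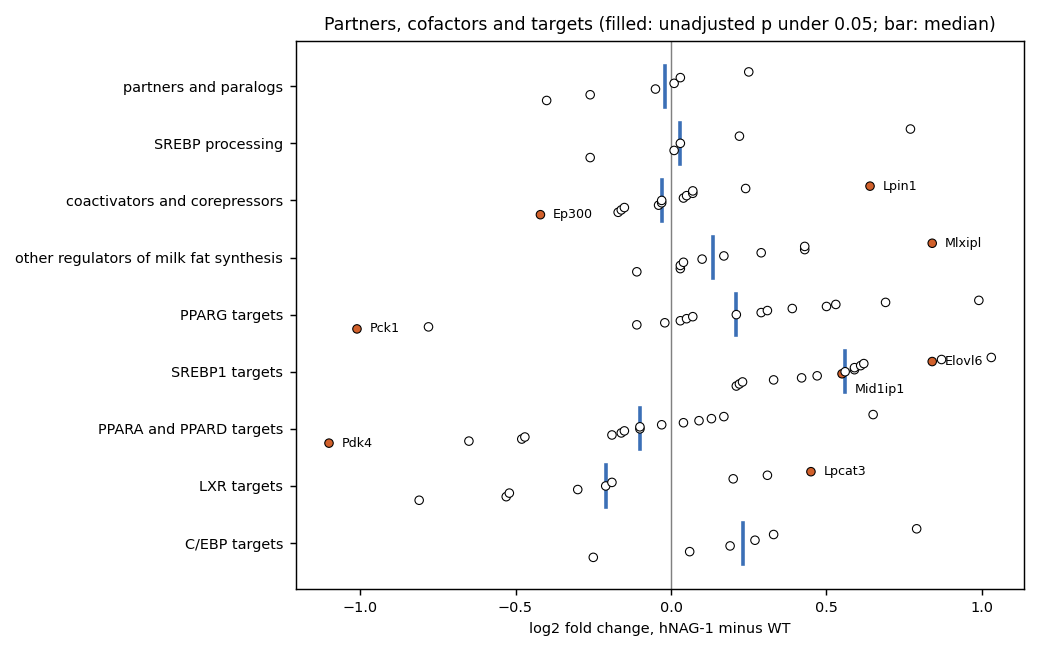
Log2 fold change (hNAG-1 minus WT) of each gene of 9 lists, with the median of a list as a bar and genes at an unadjusted p under 0.05 filled and named. All 15 SREBP1 targets lie above 0, and the other target lists lie on both sides of it.

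Promoter sequence was read for the members, since Pparg moved together with Cebpa. RefSeq (GRCm38.p6) gave 15 start sites for the 9 genes, and the 250 bases before each were searched on both strands. The letters TTGCNNAA, which C/EBP proteins bind, were found in 1 of the 15 windows, against 9.56% of 32851 windows of all genes. That window belongs to the third of the Pparg start sites, at chr6:115421816-115422065 on the plus strand of GRCm38.p6. It is shown because it holds the letters on each strand, in capitals, ending 208 and 9 bases before the start.
Pparg start site 3: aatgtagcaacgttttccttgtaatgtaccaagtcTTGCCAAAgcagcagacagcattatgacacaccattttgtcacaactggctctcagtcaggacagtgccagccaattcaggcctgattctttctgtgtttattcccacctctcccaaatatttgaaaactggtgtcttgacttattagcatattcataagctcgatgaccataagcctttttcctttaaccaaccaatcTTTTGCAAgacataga
The nuclear receptor half-site AGGTCA was found in 3 of the 15 windows, against 14% of all windows. These were the windows of the first and second Pparg start sites, with 1 match each, and of the second Rxra start site, with a match on each strand. It is shown next, from chr2:27709042-27709291 on the plus strand, with the matches in capitals, because Rxra is the shared partner.
Rxra start site 2: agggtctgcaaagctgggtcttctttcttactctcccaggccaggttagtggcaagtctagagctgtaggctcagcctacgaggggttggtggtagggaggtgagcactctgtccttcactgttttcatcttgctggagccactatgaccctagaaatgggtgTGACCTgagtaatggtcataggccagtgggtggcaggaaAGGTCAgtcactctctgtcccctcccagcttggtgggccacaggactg
The sterol response element TCACNCCAC, the E-box CACGTG and the exact half-site repeats DR1 and DR4, as bound by PPAR and LXR pairs, were found in 0 of the 15 windows, against 1.05%, 6.02%, 0.0335% and 0.0152% of all windows. A match describes letters only, and the Pparg probe does not tell the start sites apart.

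The genes with patterns most like those of the members were named by Pearson's r over the 9 mice, among 16389 RefSeq probes well above background on all arrays. They are a description, and the highest of so many values is high in any data. For Pparg they were A530016L24Rik (0.967) and Tomm40 (0.961), for Cebpa Sh3glb2 (0.982) and Cdc42bpb (0.974), and for Cebpb Dusp7 (0.977) and Sh3px3 (0.941). For Srebf1 they were Zfp276 (0.986) and Gmppb (0.981), for Ppara Arfgap3 (0.983) and Egfr (0.981), and for Ppard Ly6h (0.970) and Fgfr4 (0.966). For Rxra they were Eif4g1 (0.945) and Ints3 (0.943), for Nr1h2 1110032A03Rik (0.936) and Tfb2m (0.930), and for Nr1h3 Mrg1 (0.932) and 2310004I24Rik (0.930).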

How the data were processed

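The authors deposited, for each of 9 one-color Agilent arrays, the Feature Extraction output (9.5.3.1), whose intensity values had their background subtracted and were not scaled between arrays. The deposited series table holds the same intensities, with a largest difference of 0. Each array held 45018 features, of which 1639 controls were left out here. Repeated features of a probe were averaged, arrays were set to a common 75th percentile and log2 was taken. Genotypes of the labels (4 WT, 5 hNAG-1) were compared by limma 3.58.1 in R 4.3.3 (lmFit, eBayes, two-sided, Benjamini-Hochberg over 41174 probes), and by exact permutation over 126 splits. No covariate was used, since the methods name none for their ANOVA. Scripts were tested on simulated data. Precision is limited by the number of arrays.

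The members and the gene lists were chosen with earlier results of these data known, and the promoter motifs after the files had been examined. Probes were found for 142 of 143 list entries (14 through their accession), and Cebpe had no match. Named were all members by every probe. From each list other than the cell type markers, the genes with an unadjusted p under 0.05 (at most 3) were named. Where a list had none, the gene with the lowest p was named. Also named, after their values were seen, were LXR target, SREBP processing and adipocyte marker genes not well above background on every array. Coordinates of probes follow the array design (mm7). Alternatives were quantile, median or no scaling, normexp (offset 50), a filter on dim probes, flagged outliers left out, eBayes with trend and robust estimation, the ANOVA of the methods with equal variance, a fixed or random slide block, only slide 3, a replicate block, leaving out each mouse, and the mean over the probes of a gene.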

Additional observations from a re-analysis of the deposited data

How the results depend on the processing

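Of 423 log2 fold changes of members and named list genes under the alternatives, 392 kept their direction and side of the threshold, and 31 reversed. The threshold after adjustment was crossed by 0, and no member passed it in any setting. No value passed it in the main fit either, so a kept value had the same sign but not always a similar size. With slide as a block, Lpin1 went from 0.64 to 0.01 and Ep300 from -0.42 to -0.06, and both count as kept. The count of member probes at an unadjusted p under 0.05, 2 of 12, was 5 with median scaling (median of all probes 0.196, against -0.0144), 0 without scaling (-0.164), and 0 with slide as a fixed block or with slide 3 alone. Leaving out each mouse gave 1 to 4. It was 1 without WT 1 (4.98% of all probes), WT 2 (4.31%) or hNAG-1 2 (2.82%), and 4 without hNAG-1 4 (3.82%). Without WT 1, WT 2 or hNAG-1 2, the call that remained was that of Cebpb A_52_P605846. The count of members higher in hNAG-1, 8 of 12, was 7 to 10 when a mouse was left out, 10 with normexp or quantile normalization, 11 with median scaling and 6 without scaling. The ANOVA that the methods name, run here with 2 genotypes and equal variance, gave 2 members before and 0 after Benjamini-Hochberg.

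Several values had the opposite sign with slide as a fixed block and with slide 3 alone, which give the same values. Ppara was then at -0.40, Ppard at 0.30, Srebf1 at -0.16, Rxra at 0.04 and Nr1h2 at 0.14. Nr1h3 was at -0.26, Srebf2 at -0.31, Insig1 at -0.10 and Pdk4 at 0.25. The median of all probes was 0.186 under the block, so Rxra and Nr1h2 were above 0 but under that median. Ppard was at 0.10 with normexp, 0.14 with quantile normalization and 0.07 with median scaling, and Nr1h2 was at 0.19 with median scaling. The median of all probes was 0.0553 with normexp, 0.034 with quantile normalization and 0.196 with median scaling. Without scaling, Ppara was at -0.04 and Nr1h3 at -0.09, and the median of all probes was -0.164. Leaving out 1 mouse gave -0.12 to 0.29 for Ppara (0.00 without WT 1), -0.06 to 0.02 for Nr1h2 and -0.15 to 0.26 for Nr1h3. Pparg stayed between 0.33 and 0.52, Cebpa between 0.33 and 0.54 by A_52_P168567 and between 0.33 and 0.65 by A_51_P214087, and Cebpb between 0.29 and 0.55 by A_52_P63553 and between 0.63 and 0.87 by A_52_P605846 when a mouse was left out. The cause of these changes was not tested.

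The replicate numbers of the titles did not pair the mice: the deviations of mice with the same number from their genotype's mean had r of 0.279, -0.199, -0.142 and -0.307 for numbers 1 to 4. With the replicate block, which leaves out the information of hNAG-1 5 since no WT mouse has that number, the counts were 2 of 12 at the unadjusted threshold and 8 of 12 with a fold change above 0, and the log2 fold changes were 0.44 for Pparg, 0.68 for Srebf1, 0.41 for Cebpa and 0.45 for Cebpb (A_52_P63553). The 2 calls were then both probes of Cebpb, and Pparg lost its unadjusted call. The lowest adjusted p of a member was 0.142.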
